A study of Mus musculus with 12 samples.

Results

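The dystrophin glycoprotein complex was followed through 8 of its genes, Dmd, Utrn, Dtna, Dag1, Sgca, Sgcb, Sgcd and Sspn, which were taken by symbol from the 51826 entries of the deposited gene count table. Each symbol matched a single entry, and all 8 genes passed the filter on low counts in every comparison, with between 1240 counts (Sgcd) and 108224 counts (Dag1) in a library. The genes were measured in atria and ventricles of the same 6 female FvB mice, which gave 12 stranded poly(A) RNA-seq libraries, 3 in each of 4 groups. CUG960 +dox mice (V119, V120 and V123) were homozygous for TREDT960I, a tetracycline-responsive transgene that places interrupted CUG repeats in human DMPK exons, and hemizygous for MHCrtTA, which expresses the reverse tetracycline transactivator from the α myosin heavy chain promoter of cardiomyocytes. MHCrtTA +dox controls (V327, V333 and V334) were hemizygous for the transactivator alone. Both genotypes received doxycycline from postnatal day 1 and were 10 weeks old, so that dox and transactivator were shared by all 4 groups, and the transgene was driven in cardiomyocytes while the libraries held RNA of whole chambers.

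The complex links the actin cytoskeleton of muscle to the extracellular matrix. Dystrophin, or its autosomal relative utrophin, binds actin inside the cell and β-dystroglycan at the membrane, while α-dystroglycan, once it carries its matriglycan sugar, binds laminin outside. The sarcoglycans and sarcospan form a subcomplex beside dystroglycan, and dystrobrevin and the syntrophins form a signalling arm at the end of dystrophin. Loss of dystrophin or of some of the sarcoglycans causes muscular dystrophy, which can come with cardiomyopathy.

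Sspn was the single member of the 8 that was differentially expressed between genotypes, and it was upregulated about 1.5-fold in both chambers of CUG960 +dox mice. The other 7 members, which include dystrophin, utrophin, dystroglycan and the 3 sarcoglycans, did not pass the threshold in either chamber. Differential expression was called at an adjusted P value under 0.05 by the quasi-likelihood test of edgeR, with Benjamini-Hochberg adjustment over all genes tested, and a fold change of at least 1.5. By this rule 1 of 8 members was called in atria, where 5.49% of 17650 genes were called, and 1 of 8 in ventricles, where 4.75% of 16909 genes were called. Without the fold change limit, Sspn was still the only member called, against 14.6% of all genes in atria and 9.94% in ventricles.

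Sspn encodes sarcospan, a small protein with several membrane spans that holds the sarcoglycans to dystroglycan. In GRCm38 it lies on chromosome 6, at chr6:145931641-145965223 on the plus strand, as a protein coding gene with 3 transcripts in GENCODE M21. Because it was the called member, the stretch before one of its start sites is shown. RefSeq lists 2 Sspn promoters, and the one shown was taken because it holds no annotated Sspn exon. The window lies within the span of the gene, before an internal start site. Whether that start was used in these hearts was not tested. It is the 250 bases before the start of a coding transcript, at chr6:145933872-145934121 on the plus strand of GRCm38.p6, with a GC content of 51.2%. Capitals mark the 2 motif matches found in it, an M-CAT element (CATTCC) that begins 113 bases before the start and an E-box (CANNTG) that begins 68 bases before it.
Sspn promoter: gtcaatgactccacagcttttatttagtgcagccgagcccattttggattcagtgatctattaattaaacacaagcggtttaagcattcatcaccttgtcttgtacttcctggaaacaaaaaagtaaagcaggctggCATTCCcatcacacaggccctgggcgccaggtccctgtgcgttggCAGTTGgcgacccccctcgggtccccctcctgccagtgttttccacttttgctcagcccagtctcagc
Both strands were searched. An M-CAT element was held by 12.6% of 32851 RefSeq promoter windows of this length and an E-box by 66.2%, while GATAA (22.6% of windows), TATAAA (12.4%), the MEF2 site (0.508%) and the CArG box (1.47%) had no match in the Sspn window. The matches describe the letters of the window and do not show that a factor bound there.

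In atria, Sspn measured 166, 159 and 151 normalised CPM (counts scaled to a common library size) in control mice V327, V333 and V334, and 228, 219.6 and 270.5 CPM in CUG960 +dox mice V119, V120 and V123. In ventricles, the same control mice had 184, 174 and 199.7 CPM and the same CUG960 +dox mice had 291, 271 and 296 CPM. The lowest CUG960 +dox library lay above the highest control library in both chambers, and V123 stood above the other 2 CUG960 +dox atria. The scaling used TMM, a library size factor that edgeR computes over all genes.

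The mean level in atria was 158 ± 7.53 CPM in controls and 239 ± 27.3 CPM in CUG960 +dox mice (SD, n = 3 each), and the log2 fold change was 0.60 (SE 0.087, adjusted P value 0.0042 by edgeR). In ventricles it was 186 ± 12.9 CPM in controls and 286 ± 13.1 CPM in CUG960 +dox mice, and the log2 fold change was 0.62 (SE 0.080, adjusted P value 0.0019 by edgeR). The changes in the 2 chambers differed by −0.03 on the log2 scale (SE 0.119, adjusted P value 0.96 for the interaction of chamber and genotype), so a difference between chambers was not detected. The fold change sat close to the limit of 1.5. The log2 value was 0.49 in atria without V123 and 0.56 without V334, and 0.58 in ventricles without V333, each just under the limit with the adjusted P value still under 0.05. Over 14 alternative settings in each chamber, the adjusted P value of Sspn was at most 0.020 in atria and 0.014 in ventricles. Settings that only dropped the fold change limit repeated the values of another fit. Sspnos, an antisense gene that overlaps Sspn exons, had at most 76 counts in a library, against at least 18331 for Sspn in these stranded libraries.

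**Figure D1:**
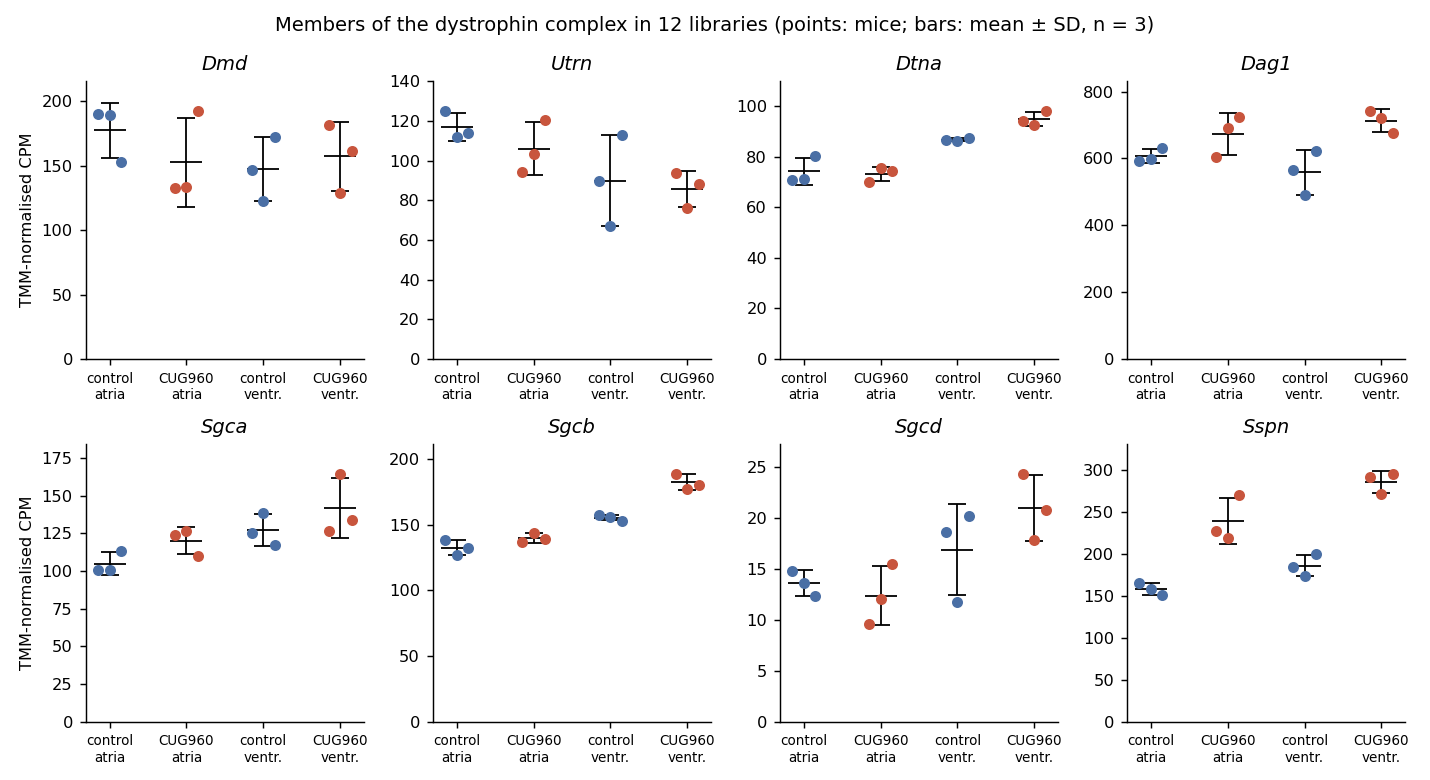
TMM-normalised CPM (vertical axes, from 0) of the 8 members in each of 4 groups (horizontal axes), with a point for each mouse and bars for the mean ± SD of 3 mice. The CUG960 +dox points of Sspn lie above the control points in both chambers (228, 219.6 and 270.5 against 166, 159 and 151 CPM in atria), while the points of Dmd and Utrn overlap between genotypes.

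After Sspn, the smallest adjusted P values between genotypes were those of dystroglycan and β-sarcoglycan in ventricles. Dag1 encodes the precursor that is cleaved into α- and β-dystroglycan (chr9:108204634-108263958, minus strand). Its ventricular level was 565, 489 and 623 CPM in control mice V327, V333 and V334 and 742, 719.6 and 676 CPM in CUG960 +dox mice V119, V120 and V123. The groups did not overlap, but the control library V333 was well below the other 2. The log2 fold change was 0.35 (SE 0.099, adjusted P value 0.055 by edgeR), and in atria it was 0.15 (adjusted P value 0.24), with means of 607 ± 20.4 CPM in controls and 673 ± 61.8 CPM in CUG960 +dox mice.

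Sgcb encodes β-sarcoglycan, the core of the sarcoglycan subcomplex (chr5:73632749-73647790, minus strand). In ventricles it measured 157, 156 and 153 CPM in controls and 189, 178 and 180.5 CPM in CUG960 +dox mice, again without overlap. Its log2 fold change was 0.23 (SE 0.067, adjusted P value 0.059 by edgeR), and the change in atria was 0.08 (adjusted P value 0.40). Under DESeq2, the tool the study names, the adjusted P values in ventricles were 0.0089 for Dag1 and 0.021 for Sgcb, with the same log2 fold changes and both under 1.5-fold. Dag1 and Sgcb thus changed side of the adjusted P value with the tool, and neither reached the fold change limit under any setting. The tool was not the only such choice, since another setting of edgeR gave Sgcb an adjusted P value of 0.015 in ventricles. With 1 mouse left out the adjusted P values by edgeR were up to 0.15 for Dag1 and 0.17 for Sgcb. A difference between chambers was not detected for either gene, with interactions of −0.20 for Dag1 (adjusted P value 0.60) and −0.15 for Sgcb (0.47).

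The remaining sarcoglycans showed no change with genotype that passed the test. Sgca, which encodes α-sarcoglycan (chr11:94962791-94976327, minus strand), had 100.4, 100.9 and 113 CPM in control atria and 124, 127 and 109.9 CPM in CUG960 +dox atria. The ranges overlapped through V123, and the log2 fold change was 0.20 (SE 0.078, adjusted P value 0.14 by edgeR). In ventricles the Sgca mean was 127 ± 10.6 CPM in controls and 142 ± 20.1 CPM in CUG960 +dox mice (adjusted P value 0.40). Sgcd, which encodes δ-sarcoglycan (chr11:46896253-47988969, minus strand), was by far the lowest member and varied most. It lay between 9.62 and 15.4 CPM in CUG960 +dox atria and between 11.8 and 20.2 CPM in control ventricles. Its log2 fold change with genotype was −0.14 in atria (SE 0.159, adjusted P value 0.61) and 0.32 in ventricles (SE 0.191, adjusted P value 0.34 by edgeR).

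Dmd and Utrn, the actin-binding members, also did not pass with all 3 mice of each group. Dmd (chrX:82948870-85206141, plus strand) measured 189.9, 189.5 and 153 CPM in control atria and 132, 133 and 192 CPM in CUG960 +dox atria. V334 was the low library among controls and V123 the high one among CUG960 +dox mice, so the ranges overlapped. The log2 fold change of Dmd was −0.22 in atria (SE 0.154, adjusted P value 0.38 by edgeR) and 0.10 in ventricles (SE 0.147, adjusted P value 0.74). With 1 mouse left out the atrial value of Dmd ranged from −0.42 to −0.12, and without V123 the −0.42 had an adjusted P value of 0.036. The ventricular value of Dmd ranged from −0.02 to 0.23. Utrn (chr10:12382188-12869365, minus strand) had means of 117 ± 7.07 CPM in control and 106 ± 13.3 CPM in CUG960 +dox atria, and of 89.9 ± 23.0 and 85.8 ± 9.03 CPM in ventricles (adjusted P values 0.35 and 0.84). The standard errors of Dmd and Utrn in ventricles, 0.147 and 0.165, were well above the 0.067 of Sgcb, and a small change of either gene was not detectable at this spread.

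Dtna encodes α-dystrobrevin, which binds dystrophin and carries syntrophins (chr18:23415135-23659715, plus strand). Its atrial means were 74.2 ± 5.40 CPM in controls and 73.3 ± 2.81 CPM in CUG960 +dox mice. In ventricles it measured 86.6, 86.2 and 87.4 CPM in controls and 94.1, 92.6 and 98.1 CPM in CUG960 +dox mice. The ventricular groups did not overlap, yet the log2 fold change was 0.13 (SE 0.066, adjusted P value 0.24 by edgeR). In all, groups did not overlap for 1 of 8 members in atria, where the same held for 35.7% of genes, and for 4 of 8 in ventricles (Dtna, Dag1, Sgcb and Sspn), against 31.2% of genes. The median log2 fold change over the 8 members was 0.03 in atria and 0.20 in ventricles, beside −0.01 over all genes tested in either chamber. With 3 mice in each group, exact permutation allows no p under 0.1, so each adjusted P value here rests on the spread that edgeR shares across genes. Whole chambers were sequenced, so fewer cells of a type and less RNA per cell could not be told apart.

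**Figure D2:**
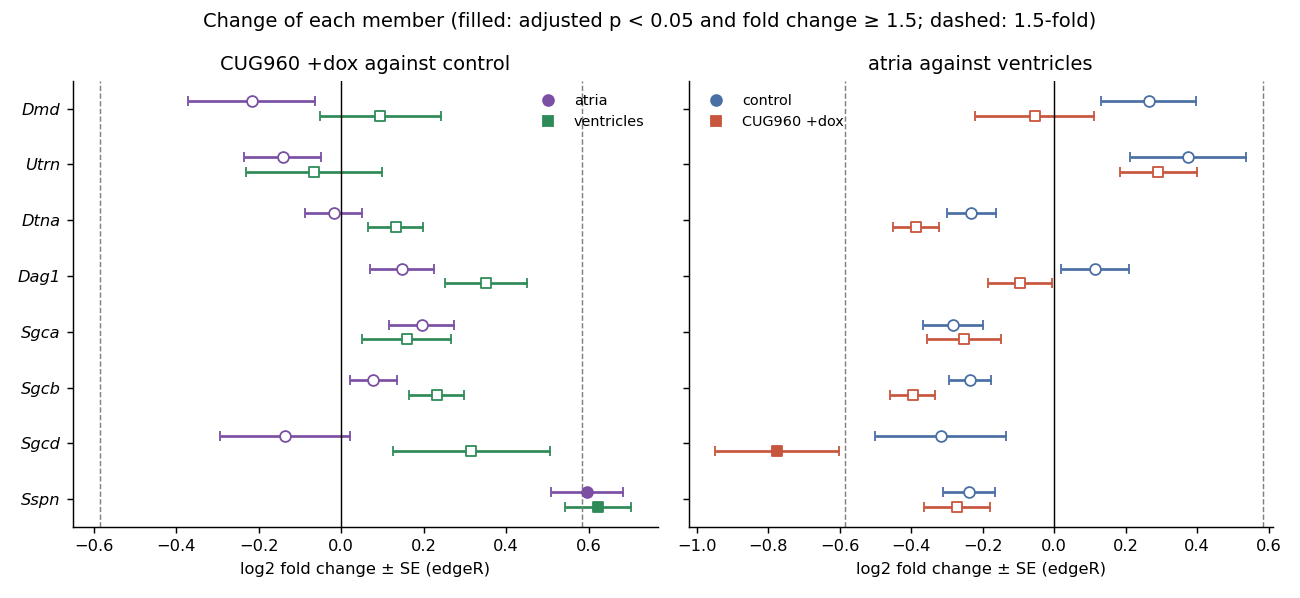
Log2 fold change ± SE by edgeR (horizontal axes) of each member (rows) for CUG960 +dox against control in atria and ventricles (left) and for atria against ventricles in each genotype (right), with filled points for genes that passed both limits and dashed lines at 1.5-fold. On the left only Sspn is filled, at 0.60 in atria and 0.62 in ventricles, and on the right only Sgcd in CUG960 +dox mice is, at −0.77.

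The chambers were compared next, within each genotype. The marker genes matched the labelled chambers. Nppa, the atrial natriuretic peptide, was at 11402 CPM or more in each atrial library and at most 224 CPM in ventricles, and Myl2, the ventricular myosin light chain, was at 8505 CPM or more in ventricles and at most 33.5 CPM in atria. In controls, 0 of 8 members passed both limits, whereas 34.9% of 17451 genes did. By DESeq2 the count was also 0, against 5980 genes, and 5 members had an unadjusted p under 0.05 by edgeR, against 10656 of the 17451 genes. Without the fold change limit, 4 of 8 members were called (55.7% of all genes), and all 4 were lower in atria. These were Dtna (log2 fold change −0.23, adjusted P value 0.019), Sgca (−0.28, 0.019), Sgcb (−0.24, 0.0092) and Sspn (−0.24, 0.021). With 1 mouse left out each of the 4 kept a negative log2 fold change but lost its call at least once, with adjusted P values of up to 0.142 for Dtna, 0.137 for Sgca, 0.0595 for Sgcb and 0.176 for Sspn. None of the 4 was called without V327, Dtna, Sgca and Sgcb were not called without V333, and Sspn, at −0.15, was not called without V334. The groups of the same 4 members did not overlap, against 64.6% of all genes. Markers of cell types also differed between control chambers at the adjusted P value alone. Among 8 cardiomyocyte markers 1 was higher and 4 were lower in atria (median log2 fold change −0.37). Among 8 fibroblast markers 7 were higher and none was lower (median 0.83). The part of these shifts in the values of the members was not tested.

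In CUG960 +dox mice, 1 of 8 members passed both limits, against 33.6% of 17559 genes. Sgcd was lower in atria, with 9.62, 12.1 and 15.4 CPM in V119, V120 and V123, than in ventricles, with 24.3, 17.8 and 20.7 CPM in the same mice. The log2 fold change was −0.77 (SE 0.173, adjusted P value 0.0045 by edgeR), and it was −0.50 without V119, the mouse that had both the lowest atrial and the highest ventricular value. In controls the Sgcd change was −0.32 (SE 0.184, adjusted P value 0.17), with overlapping ranges. It ran from −0.52 without V333 (adjusted P value 0.015) to −0.10 without V334, and the difference between genotypes was not detected (adjusted P value 0.59 for the interaction).

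Without the fold change limit, 5 of 8 members were called in CUG960 +dox mice (54.2% of all genes). Beside Sgcd, Dtna (−0.39, adjusted P value 0.00081 by edgeR), Sgcb (−0.40, 0.00066) and Sspn (−0.27, 0.033) were lower in atria, and Utrn alone was higher (0.29, 0.047). With 1 mouse left out Sgcd, Dtna and Sgcb stayed under 0.05, whereas the call of Sspn was lost without V119 and without V120 (adjusted P value up to 0.176) and that of Utrn without V120 and without V123 (up to 0.174), with Utrn at 0.44 without V119. Utrn had 94.2, 103 and 120.5 CPM in CUG960 +dox atria and 93.5, 75.9 and 88.1 CPM in the ventricles of the same mice. In controls its change was of like size, 0.38, with a larger standard error of 0.163 and an adjusted P value of 0.081. With the mouse as a replicate block and no fold change limit, 5 members were called in controls, with Utrn added at 0.41 (adjusted P value 0.026), and 6 in CUG960 +dox mice, with Sgca added, where the same fit called 9739 and 9729 genes. Groups did not overlap for 6 of 8 members in CUG960 +dox mice, against 62.6% of genes. Dmd and Dag1 were not called between chambers in these fits. Without V334, Dmd was higher in control atria by 0.49 on the log2 scale (adjusted P value 0.0060), whereas it was 0.26 with all 3 mice (adjusted P value 0.12). Between the chambers of CUG960 +dox mice, 5 of 8 cardiomyocyte markers passed the adjusted P value as lower in atria and none as higher (median −0.46). For fibroblast markers, 6 of 8 were higher and none was lower (median 0.47). The part of these markers in the member values was not tested.

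Whether genotype acted differently by chamber was tested as an interaction over all 12 libraries, at an adjusted P value under 0.05 with no fold change limit. This fit held no term for the mouse, although both chambers came from the same mice. No member passed (0 of 8, against 1.38% of 18327 genes), with adjusted P values between 0.47 (Sgcb) and 0.96 (Sspn). The count was 0 at an unadjusted p under 0.05 by edgeR, against 2253 of the 18327 genes, and DESeq2 called 0 members and 660 genes. Among the members the estimates farthest from 0 were those of Sgcd, −0.45 (SE 0.283), and Dmd, −0.31 (SE 0.241), where a negative value stands for a lower change with genotype in atria than in ventricles. Leaving out 1 mouse moved them between −0.67 and −0.17 for Sgcd and between −0.54 and −0.10 for Dmd.

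Levels of different members were compared per kilobase of the gene's exons in GENCODE M21. Dag1 was highest in all 4 groups, with 95.6 ± 3.20 CPM per kb in control atria and 112 ± 5.31 CPM per kb in CUG960 +dox ventricles. Sgca followed, at 60.5 ± 4.27 and 81.7 ± 11.6 CPM per kb in the same groups. Sspn and Sgcb came next. In controls they did not differ beyond their spread, at 31.7 ± 1.51 and 32.7 ± 1.41 CPM per kb in atria and 37.3 ± 2.57 and 38.4 ± 0.498 CPM per kb in ventricles, but in CUG960 +dox mice each Sspn library lay above each Sgcb library. Sspn then stood at 47.9 ± 5.46 CPM per kb in atria and 57.3 ± 2.63 CPM per kb in ventricles, beside 34.5 ± 0.867 and 45.0 ± 1.47 CPM per kb for Sgcb.

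Dmd, Utrn and Dtna lay near each other at the low end, between 4.33 and 7.45 CPM per kb, where the ranges of Dmd and Utrn overlapped in each group, although Dmd lay above Utrn in each ventricular library, and Dtna lay below Utrn in each atrial library. Sgcd was lowest, between 1.498 ± 0.353 CPM per kb in CUG960 +dox atria and 2.54 ± 0.397 CPM per kb in CUG960 +dox ventricles. The exons of Dtna add up to 16.93 kb, whereas its longest transcript is 6.295 kb. Over the longest transcript Dtna stood above Utrn in each of the 4 groups, and 18 of 32 places in the order stayed as they were. Dag1, Sgca and Sgcd kept their places at the top and bottom.

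Members varied in different ways among mice of one group. In the libraries that lay farthest from their group means, Dmd, Utrn and Sgcd lay on one side and Sgca on the other. Among control ventricles, Dmd lay 0.25 below the mean of its group on the log2 scale in V333 and 0.24 above it in V334, Utrn lay 0.39 below and 0.36 above, and Sgcd lay 0.48 below and 0.30 above. Sgca lay 0.13 above its mean in V333 and 0.11 below it in V334. Among CUG960 +dox atria, V123 held the highest Dmd, Utrn, Sgcd and Sspn (0.36, 0.19, 0.35 and 0.18 above the group mean) and the lowest Sgca (0.13 below). This did not hold in each library, since in V333 atria Dmd lay 0.10 above its mean while Utrn and Sgca lay 0.06 and 0.05 below theirs.

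In V333 and V334 ventricles and V123 atria, the long transcripts as a class lay on the side of Dmd. The median over 328 genes whose longest transcript was 10 kb or more was −0.23 in V333 ventricles, 0.22 in V334 ventricles and 0.16 in V123 atria. Over 2700 genes with transcripts of at most 2 kb it was 0.12, −0.11 and −0.08. In V327 atria they lay on the other side, with medians of −0.03 for long and 0.03 for short transcripts beside 0.11 for Dmd, 0.10 for Utrn, 0.13 for Sgcd and −0.06 for Sgca. Dmd (14.91 kb) and Utrn (12.382 kb) belong to the first class and Sgca (1.724 kb) to the second, while Sgcd (4.453 kb by its longest transcript) belongs to neither. What set long and short transcripts apart in these libraries was not tested.

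When the trend with transcript length was removed in each library, a setting added after the data were seen, Sspn kept log2 fold changes of 0.63 in both chambers (adjusted P values 0.0020 in atria and 0.00033 in ventricles by edgeR). In ventricles the standard errors of Dmd and Utrn shrank to 0.072 and 0.082, with log2 fold changes of 0.06 and −0.07 (adjusted P values 0.59 and 0.62). Dag1 (0.36, adjusted P value 0.011) and Sgcb (0.24, 0.019) then passed the adjusted P value in ventricles, so that 3 of 8 members were called without a fold change limit, beside 14.9% of 16314 genes under the same setting. The atrial change of Dmd was −0.11 under it (adjusted P value 0.52), and the chamber difference of Utrn in controls was 0.16 in place of 0.38 (adjusted P value 0.16).

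**Figure D3:**
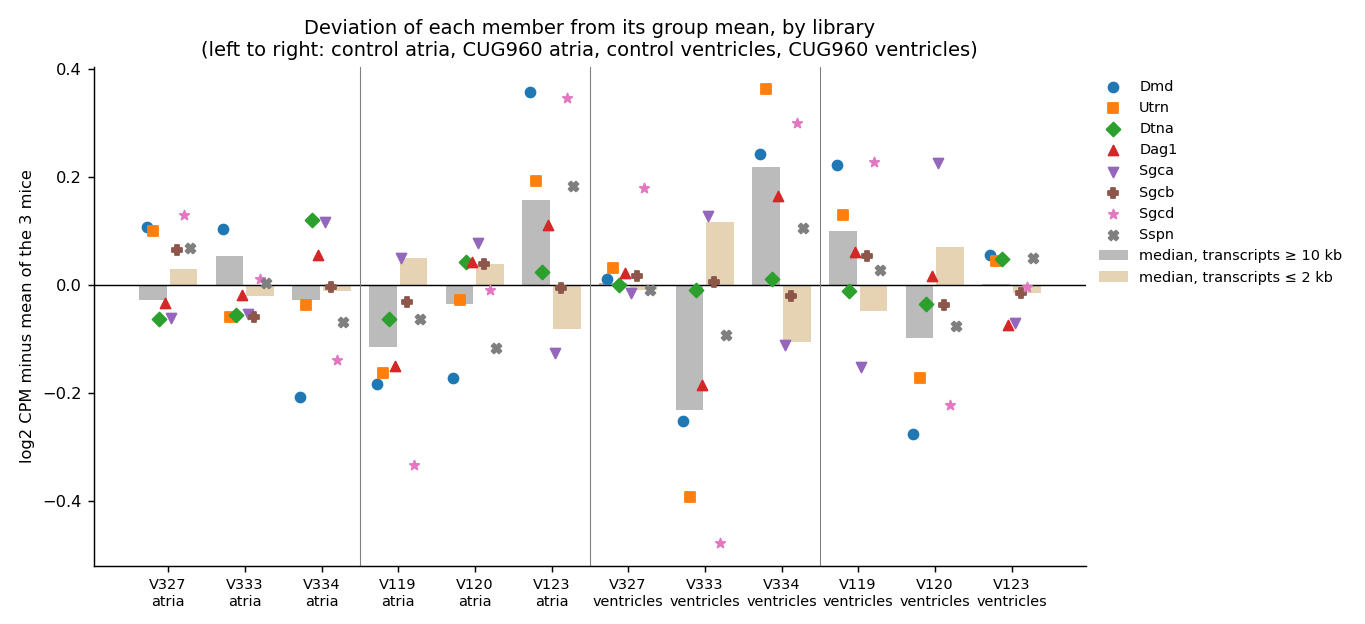
Deviation of each member from the mean of its 3 mice in log2 CPM (vertical axis, points) in the 12 libraries (horizontal axis), with bars for the median deviation of genes with transcripts of at least 10 kb and of at most 2 kb. In the V333 ventricles Dmd, Utrn and Sgcd (−0.25, −0.39 and −0.48) lie on the side of the long transcripts (−0.23) and Sgca (0.13) on that of the short ones (0.12), and in the V334 ventricles all of them are on the other side of 0.

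The genes with the pattern most like each member over the 12 libraries were sought among 13111 genes whose mean reached 1 CPM, by the root mean square difference of centred log2 CPM. For Sspn these were Bcl2 (0.079), Sbf2 (0.103) and Uchl5 (0.119), against a spread of 0.34 of Sspn itself. For Dmd they were Zfp563 (0.098), Vps13c (0.103) and Ino80d (0.109), and for Utrn Rictor (0.065), Dennd5b (0.070) and Kat6a (0.076). The nearest to Sgcd was Best3, at 0.16 against a spread of 0.38 of Sgcd itself. Within the complex the closest pair was Dtna and Sgcb, at 0.077. Sgcb ranked 26 among the 13111 genes by likeness to Dtna, and Dtna ranked 35 by likeness to Sgcb. Dmd and Utrn lay 0.18 apart, with Utrn at rank 302 for Dmd, and Sspn was 0.25 from Dag1 and Sgcb and farther from the rest.

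Genes that assemble with the members or act on them were counted in 5 lists, and these counts stand beside 5.49% of all genes past both limits in atria and 4.75% in ventricles, and beside 14.6% and 9.94% without the fold change limit. Of 13 further genes of the complex, 10 were tested in atria and 9 in ventricles. In atria 3 of the 10 rose past both limits and none fell. Sgce, the ε-sarcoglycan found outside striated muscle as well as in it, rose from 31.5 ± 0.697 to 49.5 ± 1.98 CPM (log2 fold change 0.65, SE 0.057, adjusted P value 0.00044 by edgeR). The syntrophin Sntb1 rose from 0.862 ± 0.114 to 1.502 ± 0.207 CPM (0.80, adjusted P value 0.024), and Sntg2, another syntrophin, from 0.250 ± 0.0363 to 1.23 ± 0.332 CPM (2.29, adjusted P value 0.0014). Both syntrophins were at the low end of expression. In ventricles Sntb1 alone rose past both limits, from 1.94 ± 0.613 to 5.06 ± 0.788 CPM (1.38, adjusted P value 0.0065).

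Sgce also differed by chamber. It was higher in atria than in ventricles in controls (log2 fold change 1.05) and more so in CUG960 +dox mice (1.56), and its interaction of 0.52 (SE 0.081) passed the test (adjusted P value 0.0087 by edgeR). Ventricular Sgce was 15.2 ± 0.196 CPM in controls and 16.6 ± 0.545 CPM in CUG960 +dox mice.

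None of the enzymes that build the sugar chain of α-dystroglycan passed both limits with genotype, of 18 tested in atria and 17 in ventricles. Without the fold change limit 3 were upregulated in atria, namely Pomgnt2 (0.42), B4gat1 (0.26) and Pomgnt1 (0.19), and 2 were downregulated in ventricles, among them B3galnt2 (−0.39). These shares, 16.7% and 11.8%, lay near the 14.6% and 9.94% of all genes. Between chambers of controls 5 of 18 passed both limits, against 34.9% of all genes. Among those lower in atria were B3galnt2 (log2 fold change −0.76) and Dpm1 (−0.71). Pomgnt2 (0.64) and the barely expressed Large2 (3.89) were higher in atria.

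Of the matrix ligands, 11 were tested in each chamber. Nid1, the basement membrane linker nidogen, fell past both limits in atria, from 116 ± 23.9 to 72.3 ± 5.44 CPM (log2 fold change −0.68, adjusted P value 0.016 by edgeR), and none did in ventricles. Without the fold change limit 2 ligands rose in atria, Agrn, which encodes agrin (0.43), and Lama2, the laminin chain of muscle (0.26), and 5 fell, namely Nid1, Lama4, Lamc1, Hspg2 and Bgn, so that 63.6% of the list was called against 14.6% of all genes. All 8 fibroblast markers had negative log2 fold changes in atria as well, with a median of −0.33 and sums of 1888 to 2214 CPM in CUG960 +dox and 2245 to 2626 CPM in control mice. Dcn was the most abundant (959 to 1139 against 1028 to 1273 CPM) and none was at 0, and the part of these markers in the values of the ligands was not tested. In ventricles Agrn rose (0.50), and Lama5 (−0.48) and Egflam, which encodes pikachurin (−0.49), fell (27.3% of the list, against 9.94%).

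The integrin and vinculin adhesion at costameres is another link from actin to matrix. Of its 15 genes tested, 2 fell past both limits in atria and none rose. Tln1, talin, fell from 224 ± 7.02 to 107 ± 0.386 CPM (log2 fold change −1.06, SE 0.055, adjusted P value 3.7e-05 by edgeR), and Lims2, a partner of integrin-linked kinase, from 108 ± 18.3 to 62.1 ± 8.33 CPM (−0.80, adjusted P value 0.0068). In ventricles Lims2 fell from 129 ± 14.7 to 71.0 ± 13.4 CPM (−0.86, adjusted P value 0.0060), and Tln1 fell by 0.51 on the log2 scale, which was under the fold change limit. Without that limit 7 of the 15 fell in atria and 1, Itgb1, rose (0.33), which made 53.3% of the list against 14.6% of all genes. In ventricles 2 fell and none rose without it, 13.3% of the list against 9.94% of all genes. The median over the list was −0.20 in atria and −0.11 in ventricles, beside −0.01 over all genes.

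Of 11 cytoskeletal linkers none passed both limits in atria, and 1 fell in ventricles. This was Krt18, a keratin at the edge of detection there (0.950 ± 0.102 against 0.216 ± 0.140 CPM, log2 fold change −2.13, adjusted P value 0.012 by edgeR). Without the fold change limit Plec, which encodes plectin (−0.45), Sync (−0.45) and Des, which encodes desmin (−0.29), fell in atria and Ank3, an ankyrin, rose (0.31), 36.4% of the list against 14.6% of all genes. The median over the 11 linkers in atria was −0.45, and 2 of them had positive values. Krt18 was still the only linker called in ventricles without the limit, 9.09% of the list against 9.94% of all genes.

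By chamber, the associated genes changed in both directions, where 34.9% of all genes in controls and 33.6% in CUG960 +dox mice passed both limits. Of the further genes of the complex, 5 of 10 were higher and 2 lower in control atria past both limits, and 3 were higher and 2 lower in CUG960 +dox atria. Dtnb, the β-dystrobrevin, was higher in atria in both genotypes (log2 fold changes 1.501 and 1.476), and Cav3, the muscle caveolin, was lower (−0.61 and −0.70). Of 11 cytoskeletal linkers 4 were higher in atria of each genotype, namely the keratins Krt8, Krt18 and Krt19 (5.31 for Krt19 in controls) and synemin, Synm (2.03). Des was lower in atria of both genotypes (−0.66 and −0.90), and Plec in those of CUG960 +dox mice (−0.66). Krt19 is also 1 of the 4 epicardial markers, and all 4 of these were higher in atria of each genotype. Upk3b, the most abundant of them in atria, was at 132 to 145 CPM in control atria and at 0.553 to 1.53 CPM in control ventricles. The 4 markers summed to 217 to 235 CPM in control atria and 6.71 to 7.61 CPM in control ventricles. The part of epicardial cells in the keratin values was not tested. Of 11 matrix ligands 1, Bgn, was higher in control atria (0.98) and 2 were lower, Egflam (−1.54) and Lama5 (−1.03), while 4 were lower in CUG960 +dox atria. Among 8 fibroblast markers 6 were higher in control atria past both limits and 3 in CUG960 +dox atria, and none was lower. Among 9 endothelial markers 1 was higher and 4 were lower in control atria, and 1 was higher and 5 were lower in CUG960 +dox atria. The part of these markers in the ligand values was not tested. Of 15 costamere genes 1, Zyx, was higher in control atria (0.77) and none was lower, while 1 was higher and 3 were lower in CUG960 +dox atria.

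**Figure D4:**
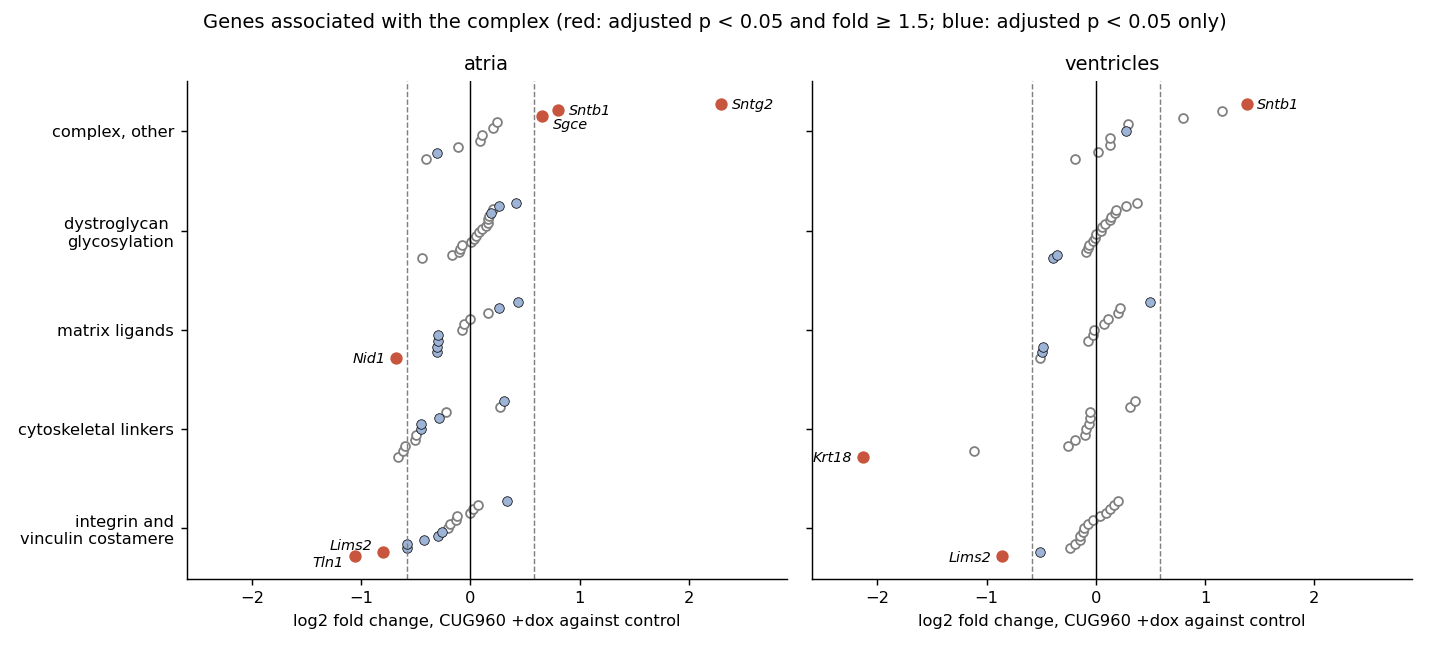
Log2 fold change of CUG960 +dox against control (horizontal axes) for the genes of the 5 associated lists (rows) in atria (left) and ventricles (right), with red for genes past both limits, blue for an adjusted P value under 0.05 alone and open points for the rest. The named red points are Sgce, Sntb1 and Sntg2 to the right and Nid1, Tln1 and Lims2 to the left in atria, and Sntb1, Krt18 and Lims2 in ventricles.

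Markers of cell types moved with genotype beside these results. All 9 endothelial markers had negative log2 fold changes in both chambers, and 4 of them passed the adjusted P value in each. Their summed level was 576 to 647 CPM in CUG960 +dox and 717 to 872 CPM in control atria, and 778 to 850 against 973 to 1130 CPM in ventricles. Pecam1 was at 126 to 167 against 219.6 to 247 CPM in atria, and none of the 9 was at 0. The sum over 8 cardiomyocyte markers was 43333 to 44852 CPM in CUG960 +dox and 40866 to 42194 CPM in control atria, with Myh6 the most abundant, and overlapped in ventricles. Without Myh6 the atrial sums lay the other way, at 13884 to 14789 CPM in CUG960 +dox mice and 15563 to 16916 CPM in controls. With no limit on fold change, where 14.6% of all genes in atria and 9.94% in ventricles were called, the counts past the adjusted P value in atria were 2 up and 1 down of 8 cardiomyocyte markers, 1 down of 5 atrial and 1 down of 3 tested ventricular cardiomyocyte markers, 3 down of 8 fibroblast, 1 up and 3 down of 8 smooth muscle and pericyte, 1 down of 6 Schwann cell and 2 down of 4 tested skeletal muscle markers, and none of the leukocyte, adipocyte and epicardial markers. In ventricles they were 1 down of 8 cardiomyocyte markers, 1 up and 1 down of 5 atrial and of 4 ventricular cardiomyocyte markers, 4 down of 8 smooth muscle and pericyte, 2 down of 5 tested Schwann cell and 1 down of 4 tested adipocyte markers, and none of the fibroblast, skeletal muscle, leukocyte and epicardial markers. Skeletal muscle markers summed to at most 2.95 CPM in any library, with up to 2 of 8 at 0. Mitochondrially encoded transcripts took 15.3% to 18.4% of the counts in CUG960 +dox ventricles and 19.6% to 20.5% in control ventricles. The part of these shifts in the changes of Sspn, Sgce, the matrix ligands or the costamere genes was not tested. The totals of the 2 genotypes did not overlap, at 116127966 to 134863462 counts in CUG960 +dox and 136770774 to 149950077 in control atria, and 140987828 to 160676189 against 129140369 to 133480610 in ventricles.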

How the data were processed

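RNA of atria and ventricles from 6 mice was measured by stranded poly(A) RNA-seq. Per the labels and the study's methods, the authors mapped reads to mm10 (GRCm38) and deposited RSEM 1.3.1 expected counts per gene, in 1 column per library. The deposited values were whole numbers (0 were not), and totals ran from 116127966 to 160676189 counts. RSEM shares reads among loci they match, so counts of near-identical copies are uncertain.

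Counts were rounded and compared with edgeR 4.0.16 (R 4.3.3) after filterByExpr and TMM. The quasi-likelihood test was fitted to the 6 libraries of a chamber or of a genotype, and the interaction to all 12. These fits held no term for the mouse, and the block for the mouse was an alternative. A standard error is the log2 fold change divided by the root of F. Steps were tested on simulated data. The chambers were paired by the mouse number in the labels. After group means were removed, libraries of the same mouse correlated at r between 0.030 and 0.135 over genes. Libraries of different mice correlated at −0.141 to 0.054. The ranges overlapped, so the pairing rests on the labels.

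The members and gene lists were chosen with earlier results of these data known. Named genes were the 8 members and, per list, comparison and direction, up to 4 associated genes past both limits by smallest p. Genes past the adjusted P value alone, and examples from the chamber lists, were picked once their values were known. The 3 genes most like a member were to be named for called members. Those of Dmd and Utrn, and the nearest of Sgcd, were likewise picked afterwards. Markers were those of endothelial, fibroblast, smooth muscle, Schwann, skeletal muscle, cardiomyocyte, atrial and ventricular cardiomyocyte, leukocyte, adipocyte and epicardial cells. Some genes that the rule chose are left out of the text. Annotation was GENCODE M21, a later release than the authors' Ensembl gene set, and promoters were from RefSeq. Alternatives were RLE factors, mitochondrially encoded transcripts left out, DESeq2 1.42.0, no filter, all 12 libraries in 1 fit, no limit on fold change, a block for the mouse, each mouse left out, a prior count of 0.5, longest transcripts and removal of the length trend.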

Additional observations from a re-analysis of the deposited data

Results flagged for a closer look

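For 3 associated genes the change with genotype differed between atria and ventricles in the test of the interaction itself. That fit held no term for the mouse, and the values given here are from it alone. Sgce had a difference of 0.52 on the log2 scale (SE 0.081, adjusted P value 0.0087 by edgeR over 18327 genes), with CUG960 +dox above control in all 3 mice of either chamber, by 0.65 in atria and less in ventricles (31.5 to 49.5 and 15.2 to 16.6 CPM). B3galnt2, a glycosyltransferase of the dystroglycan sugar chain, had a difference of 0.55 (SE 0.123, adjusted P value 0.047), with means of 26.1 and 29.2 CPM in control and CUG960 +dox atria and 44.0 and 33.5 CPM in ventricles. Tln1 had a difference of −0.55 (SE 0.099, adjusted P value 0.020), with means of 224 and 107 CPM in atria and 159.8 and 112 CPM in ventricles. Of 253 genes that passed this test, none was one of the 8 members.

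Drp2, a relative of dystrophin, and Parvb, a parvin, also lay on opposite sides of their controls in the 2 chambers without overlap, but their interactions of −1.21 (adjusted P value 0.19) and −0.39 (0.083) did not pass. Groups of 3 mice were not tested for single outlying libraries.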

How the results depend on the processing

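Sspn kept its direction in each of 14 alternatives in atria and 14 in ventricles. Alternatives that only dropped the fold change limit repeated the values of another fit, so they could not change it. With 1 mouse left out its log2 fold change ranged from 0.49 to 0.65 in atria and from 0.58 to 0.68 in ventricles, and the number of members called ranged from 0 to 1 in the genotype comparisons and both chamber comparisons. In control chambers the 1 was Utrn without V334 (0.59), and in CUG960 +dox chambers the 0 came without V119. The cause was not tested. With no fold change limit 2573 and 1680 genes were called between genotypes (atria, ventricles) and 9726 and 9517 between chambers (controls, CUG960 +dox), with 4 and 5 members in the last 2, since the limit itself was dropped. With the length trend removed as well, these were 2765, 2438, 9844 and 9463 genes, with 3, 4 and 5 members in all but the first. In the paired fit (replicate block) without the limit, 9739 and 9729 genes and 5 and 6 members were called, and with the limit the block changed no call of a member. The interaction called 660 genes with DESeq2 and 74 to 131 with 1 mouse left out, in place of 253, and 0 members throughout. By longest transcript, 18 of 32 places in the order of levels were kept. No call of a member reversed its direction. Each member had at least 1240 counts in a library.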
